A study of Mus musculus with 8 samples.

Results

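The Irx, Lhx, Pax, Pou and Tbx families and the Six-family genes encode transcription factors that act in embryonic patterning. CTCF regions at 55 of these genes were examined in mouse cortical neurons. The set was chosen with earlier results of these data known. Membership went by symbol, as numbered protein-coding genes with the stems Irx, Lhx, Pax, Tbx, Six-, or Pou1f to Pou6f. Of 21883 protein-coding genes on the assembled chromosomes, 57 had such a name, and 2 of them were not analysed here. The 55 were 6 Irx, 7 Lhx, 8 Pax, 6 Six-family, 15 Pou and 13 Tbx genes. Each gene was given a window, its span in the gene table plus 20 kb on either side, and a region belonged to it when the region's summit lay in the window. The windows held 129 of 36186 regions in the NMDA list and 135 of 33815 in the control list.

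CTCF ChIP-seq, sequencing of DNA pulled down with the protein, was done on cortical neurons cultured from wild-type Swiss-Webster embryos at embryonic day 16, crosslinked at day 13 in vitro. NMDA, an agonist of one class of glutamate receptors, was applied at 50 µM for 10 minutes and washed out 50 minutes before collection. The control cultures are labelled as having no treatment, and the comparison asks where CTCF lay with and without the stimulus. There were 2 replicates in each of 4 groups, namely NMDA ChIP, NMDA input, control ChIP and control input, and the input libraries were not analysed here. The growth protocol common to all groups also names etoposide, a topoisomerase inhibitor, but it is not the labelled treatment of a sample. The authors gave 1 region list per condition, built over both replicates by the irreproducible discovery rate (IDR) procedure. No difference between NMDA and control could therefore be tested against replicate spread, sequencing depth is unknown, and every interval below covers counting error only. Expression was not measured, so the lists say nothing of whether a gene was transcribed or of whether the cultures held only neurons.

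CTCF, a protein with many zinc fingers, recognises a long DNA motif and, with cohesin, holds the anchors of chromatin loops. Genes for developmental regulators often lie in large stretches with few other genes, where distant enhancers are brought to them. Irx proteins carry a homeodomain of the TALE class, and their genes form a pair of clusters of 3 genes each. Lhx proteins join a homeodomain to LIM domains that bind cofactors, Pax proteins carry a paired domain, and Six-family proteins bind DNA through a homeodomain and a domain named after them, often with Eya cofactors. Pou proteins bind through a POU-specific domain and a homeodomain, and Tbx proteins through the T-box. In the cortex Pax6 is known for its role in radial glial progenitors, Lhx2 for setting cortical identity, and Pou3f2 and Pou3f3 for upper-layer neurons.

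Promoter sequences show what lay at the start sites over which the lists differed. RefSeq (GRCm38.p6, the assembly of mm10) lists a promoter of 300 bases, 250 before and 50 after the start, for 41 of the 55 genes and 54 promoters in all. The first 4 below are those over whose start a region lay in 1 list alone, the fifth has a region in both lists, and the last has none. They are reference sequences and not those of the Swiss-Webster stock. Capitals mark matches on either strand to a core CTCF motif, CCANNAGNNGGC or its complement GCCNNCTNNTGG, or to the short form AGGNGGC or GCCNCCT. The short form can lie inside the core.
Six4, NMDA region alone, chr12:73113196-73113495, minus strand: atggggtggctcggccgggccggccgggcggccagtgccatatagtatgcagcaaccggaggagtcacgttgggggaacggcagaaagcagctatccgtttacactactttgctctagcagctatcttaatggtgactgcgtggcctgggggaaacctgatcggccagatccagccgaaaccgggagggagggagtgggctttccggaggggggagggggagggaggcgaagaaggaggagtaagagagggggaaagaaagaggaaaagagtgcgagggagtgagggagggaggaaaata
Six5, NMDA region alone, chr7:19094294-19094593, plus strand: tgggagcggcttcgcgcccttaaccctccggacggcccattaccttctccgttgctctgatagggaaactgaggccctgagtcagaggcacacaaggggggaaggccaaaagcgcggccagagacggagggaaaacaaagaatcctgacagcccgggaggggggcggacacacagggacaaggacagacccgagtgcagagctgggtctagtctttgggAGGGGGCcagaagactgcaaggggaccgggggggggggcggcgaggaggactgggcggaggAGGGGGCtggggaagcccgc
Lhx4, control region alone, chr1:155741978-155742277, minus strand: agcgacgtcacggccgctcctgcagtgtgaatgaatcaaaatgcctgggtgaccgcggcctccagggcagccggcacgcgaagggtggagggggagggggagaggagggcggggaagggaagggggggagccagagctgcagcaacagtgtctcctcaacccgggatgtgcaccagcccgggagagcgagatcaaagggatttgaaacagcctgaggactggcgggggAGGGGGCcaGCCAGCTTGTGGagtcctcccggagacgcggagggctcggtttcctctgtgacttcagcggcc
Pou4f2, control region alone, chr8:78436598-78436897, minus strand: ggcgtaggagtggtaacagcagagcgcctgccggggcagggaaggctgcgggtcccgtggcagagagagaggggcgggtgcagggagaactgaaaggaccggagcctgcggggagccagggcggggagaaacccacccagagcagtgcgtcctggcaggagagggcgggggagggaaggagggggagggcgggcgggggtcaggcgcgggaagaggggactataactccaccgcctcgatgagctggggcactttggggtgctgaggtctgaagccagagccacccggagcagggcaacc
Pou2f1, regions in both lists, chr1:166002585-166002884, minus strand: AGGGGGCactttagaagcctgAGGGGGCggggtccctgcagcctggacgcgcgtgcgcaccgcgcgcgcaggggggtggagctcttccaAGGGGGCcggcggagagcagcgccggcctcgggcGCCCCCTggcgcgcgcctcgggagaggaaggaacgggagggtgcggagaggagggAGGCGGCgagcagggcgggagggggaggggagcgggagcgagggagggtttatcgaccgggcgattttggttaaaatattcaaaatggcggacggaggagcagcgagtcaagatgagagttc
Tbx21, no region, chr11:97115282-97115581, minus strand: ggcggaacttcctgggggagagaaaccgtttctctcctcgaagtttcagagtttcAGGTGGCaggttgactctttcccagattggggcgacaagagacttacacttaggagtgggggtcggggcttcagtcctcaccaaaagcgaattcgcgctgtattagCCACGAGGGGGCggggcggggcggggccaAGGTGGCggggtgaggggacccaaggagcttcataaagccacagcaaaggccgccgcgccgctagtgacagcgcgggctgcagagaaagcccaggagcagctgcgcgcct

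The core motif stood in 3 of the 54 listed promoters, 5.56%, against 2.34% of all 21262 listed promoters (3 of 41 genes, against 2.75% of all genes). They were those of Lhx4, a LIM factor of the pituitary and of motor neurons, of Tbx21, the T-bet factor of type 1 helper T cells, and of Tbx6, a factor of somite formation. In Lhx4 the match began 13 bases before the start, under a control region that had no counterpart in the NMDA list. No region covered the match in Tbx21 or Tbx6 in either list. Of the 14 promoters under a region, 0 held the core motif in the NMDA list (all genes 5.13%) and 1, or 7.14%, in the control list (all genes 4.96%). The promoters over Six4 and Pou4f2 held neither form. The short form was found in 23 of 54, 42.6%, against 33.6% of all listed promoters. Among the 14 promoters under a region it was found in 9 in the NMDA list (64.3%, all genes 49.9%) and in 9 in the control list (64.3%, all genes 50.1%). The Pou2f1 promoter held it at 5 places, and 19 of the 21262 promoters held it at 5 or more (0.0894%). The listed promoters with the short form had a median GC content of 63.7%, against 57.3% in those without, so base composition moved with the matches, and its part was not tested. A match describes these letters and does not show binding.

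Most of the 55 genes had CTCF nearby in both conditions. A region lay in the window of 47 genes in the NMDA list and of 47 in the control list, 85.5% in each (95% Wilson interval 73.8 to 92.4). Over all protein-coding genes the share was 74.6% in the NMDA list and 73.8% in the control list. The median gene had 2 regions in either list, as over all genes. Per 100 kb of window, overlaps merged, there were 3.21 NMDA and 3.35 control regions, against 2.07 NMDA and 1.94 control regions over all genes. The 55 genes were shorter, with a median span of 13.1 kb against 17.2 kb over all genes. Windows of short genes consist mainly of flank, so the densities compare unlike mixtures of body and flank. The Irx windows were the densest, at 4.30 NMDA and 4.66 control regions per 100 kb, and the Pax windows the sparsest, at 2.56 NMDA and 2.93 control regions. Pax genes were the longest of the 6 families, with a median span of 42.3 kb.

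**Figure D1:**
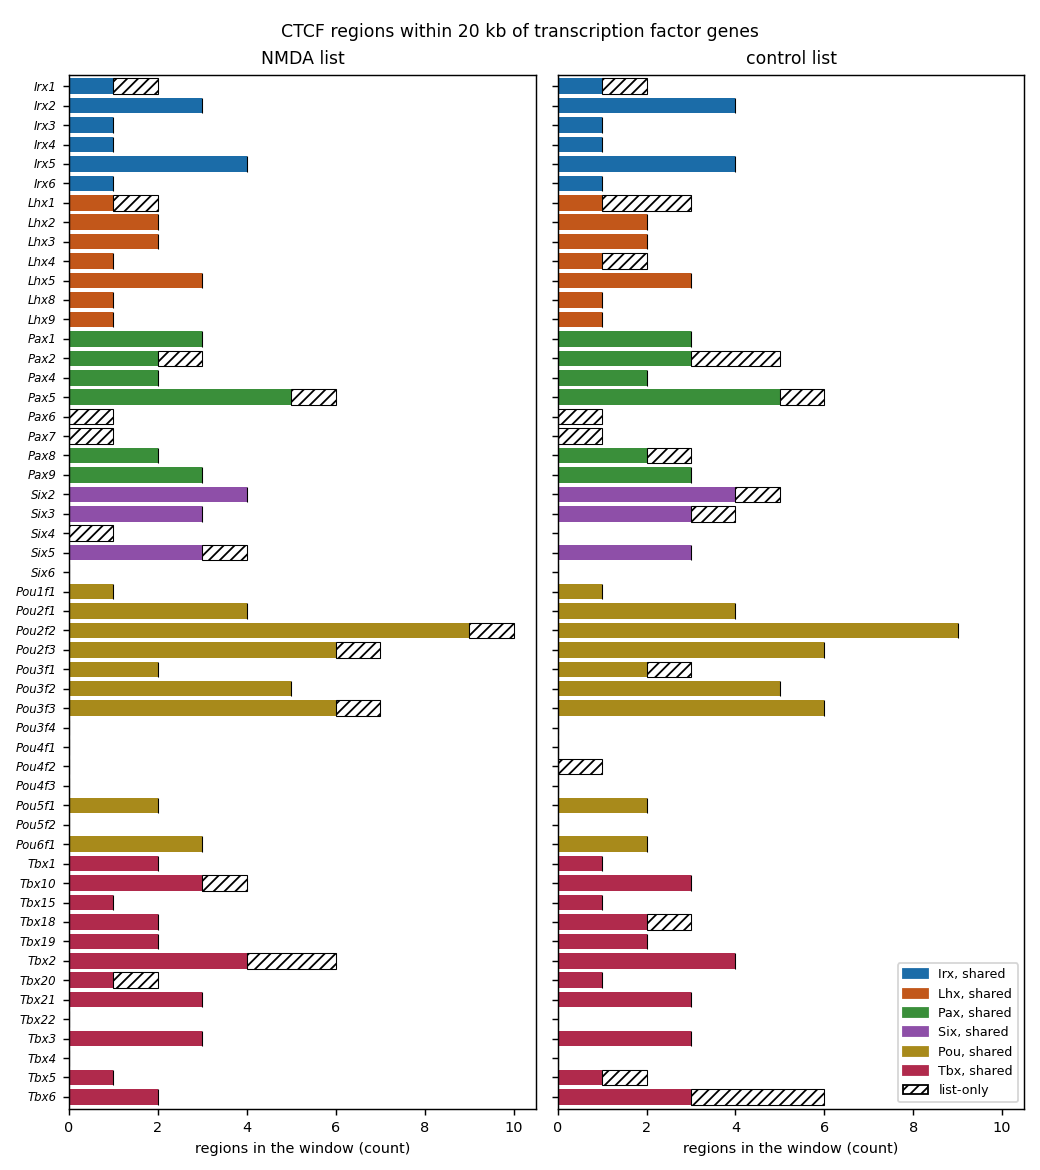
Number of CTCF regions with a summit in the window of each gene shown, NMDA list left and control list right. Coloured bars are regions shared by the lists (overlap of at least 1 bp) and hatched bars are regions found in 1 list alone. Pou2f2 stands out with 10 NMDA and 9 control regions, and 7 genes have no bar on either side.

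A larger share of the 55 genes than of all genes had a region at an end, by a margin that depended on the limits used. An end region was one with its summit at most 1 kb from either end of the gene span. This was so for 25 of 55 genes in the NMDA list and 25 in the control list, 45.5% in each (33.0 to 58.5). Of all genes 29.5% had one in the NMDA list and 29.0% in the control list. A region in the gene body was found for 18 genes in the NMDA list (all genes 36.9%) and 19 in the control list (all genes 35.4%). One in the flank was found for 34 genes in the NMDA list (all genes 59.7%) and 34 in the control list (all genes 57.8%). With the limit for an end set at 500 bp, 15 genes counted in each list, 27.3% (17.3 to 40.2), against 20.8% (NMDA) and 20.3% (control) of all genes. With regions kept only at an authors' score of 830 or more, 16 genes had one in the NMDA list, 29.1% (18.8 to 42.1), against 23.7% of all genes. In the control list 21 did, 38.2% (26.5 to 51.4), against 23.2% of all genes. The interval thus included the share of all genes in 3 of these 4 counts. Strand was known for the 41 genes with a listed start. Of these, 12 in the NMDA list and 13 in the control list had a region at the 5′ end of the span (all genes 24.7% NMDA and 24.2% control). At the 3′ end 5 genes had one in each list (all genes 6.59% NMDA and 6.44% control). A region covered a listed start in 12 of the 41 genes in each list (all genes 25.2% NMDA and 25.6% control).

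Counts by family were small, and differences between families were not tested. All 6 Irx genes had an end region in the NMDA list and 5 in the control list. For Irx3 and Irx4 it lay at the 3′ end, and none of the 3 Irx genes with a listed start had a region over it. Of the Pou genes 8 of 15 in the NMDA list and 9 in the control list had an end region, and of the Tbx genes 5 of 13 in each. In the remaining families those with one in both lists included Lhx1, Lhx5, Pax1, Pax2 and Six5. In the flanks, 12 of 71 NMDA regions and 13 of 73 control regions lay at an end of another protein-coding gene. Each such region is as near to a neighbour as an end region is to its own gene. The same share over the flanks of all genes is not given here, so whether these counts are usual is not known.

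Few of the regions were found in 1 list alone, and these were weak. An overlap of 1 bp or more with the other list made a region shared, and the rest are called list-only. In the windows 16 of 129 NMDA regions were NMDA-only, 12.4% (7.78 to 19.2), near the 15.3% in the windows of all genes and 15.5% of the whole list. Of the control regions 21 of 135 were control-only, 15.6% (10.4 to 22.6), against 9.20% in the windows of all genes and 9.22% of the whole list. That background lies below the interval, which treats regions as independent. With a reciprocal overlap of 50% in place of 1 bp, the shares became 20.9% NMDA-only, against 20.5% in the windows of all genes, and 24.4% control-only, against 15.1%. An NMDA-only region lay in the window of 15 genes (27.3%, all genes 26.7%) and a control-only region in that of 17 (30.9%, all genes 16.3%). With windows of 50 kb, 26 genes had an NMDA-only region (47.3%, all genes 40.5%), and with windows of 10 kb, 10 had a control-only region (18.2%, interval 10.2 to 30.3, all genes 12.8%). In gene bodies 5 genes had an NMDA-only region (all genes 10.3%) and 7 a control-only region (all genes 6.10%). In the flanks 9 had an NMDA-only region (all genes 15.3%) and 10 a control-only region (all genes 7.76%). Strength was taken as the rank of a region's −log10 p-value, the authors' own value, within its list, from 0 to 100 for the strongest. All 16 NMDA-only and all 21 control-only regions ranked below the median of their list. They had a median rank of 12.7 (1.68 to 40.3) among NMDA-only regions and 11.3 (0.680 to 37.0) among control-only regions. The list-only regions of the whole lists had medians of 12.3 (NMDA-only) and 9.51 (control-only).

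At gene ends 2 genes had a region in 1 list alone. Irx1, which shares a cluster with Irx2 and Irx4, had an NMDA-only region at chr13:71964052-71964880, 854 bp from the end of its span. Its −log10 p was 22.9, made of 8.05 in the first and 14.9 in the second replicate column, and its rank was 5.02. The control list instead had a control-only region in the body, chr13:71959257-71960192, with −log10 p 41.3 and rank 3.89. Pou4f2, a factor of retinal ganglion cells, had no NMDA region in its window, and its only control region, control-only, lay over the start. That region, chr8:78436012-78437555, had −log10 p 37.1 and ranked at 1.56. Both regions were thus among the weakest of their lists. Over all genes, 4.28% had an NMDA-only and 3.53% a control-only region at an end.

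At some other genes the lists also differed in which regions were called. Six4, a factor of muscle and kidney, had a region in the NMDA list only (chr12:73112271-73113275, −log10 p 25.8, rank 8.87). It lay over one of the 2 listed Six4 starts and also at an end of the neighbouring gene Mnat1. The single regions of Pax6 and of Pax7, a factor of muscle satellite cells, were list-only in both lists. In Pax6 the NMDA-only region ranked at 1.68 and the control-only region, another site in the body, at 17.9. Around Pax7 the ranks were 9.49 for the NMDA-only and 10.9 for the control-only region, both in the flank. The nearest region outside the Pax7 window had −log10 p 533 in the NMDA list, 25.4 kb from the gene. In the control list it had −log10 p 635, at 25.3 kb. At Six5 the difference over the start was one of extent. The NMDA region chr7:19092351-19094629 reached over the start at 19094544, while the control list had one region ending at 19094384 and the next beginning at 19094616.

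Most shared regions that could be matched one to one had nearly the same summits in both lists. Regions that overlapped exactly 1 region of the other list, and were overlapped by no other, formed 102 pairs in the windows. The median distance between their summits was 15 bp, and in 4 pairs it was over 100 bp. Shared regions outside these pairs, such as those split in 1 list, are not covered by that distance. Over the windows 50 of 102 pairs ranked lower in the NMDA list, with a median difference, NMDA minus control, of 0.56 rank points. At the ends of the genes 18 of 24 pairs ranked lower in the NMDA list, 75.0%, and the median difference was −4.27 points. At the ends of all genes 54.7% of 5046 pairs did (median −0.55), and over all 29350 pairs 38.1% did (median 2.39). In gene bodies 8 of 24 pairs ranked lower in the NMDA list (all genes 35.1%) and in the flanks 24 of 54 (all genes 35.7%).

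By family, the 18 lower end pairs included 4 of 4 Irx, 5 of 5 Tbx and 6 of 10 Pou pairs. In the Irx windows 9 of 10 pairs ranked lower in the NMDA list, with a median difference of −10.90 points. Irx4 ranked at 10.6 in the NMDA list and 27.2 in the control list. Irx6 ranked at 65.7 in the NMDA list and 78.8 in the control list. Irx3, which acts with Irx5 in heart, limb and hypothalamus, ranked at 73.6 in the NMDA list and 86.4 in the control list. Its −log10 p was 188 in the NMDA list and 435 in the control list, on scales that depend on depth and are not compared directly. The 5 Tbx end pairs had differences between −7.25 and −0.09 points. Among the 24 end pairs the lowest difference, −17.99 points, was at Pou2f3, a factor of tuft cells, which ranked at 17.4 in the NMDA list and 35.4 in the control list.

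Some ends ranked higher in the NMDA list. Both end regions of Pou2f2, a factor known from B cells, did so. The region at the 3′ end ranked at 63.4 in the NMDA list and 46.7 in the control list. The region at the 5′ end ranked at 62.6 in the NMDA list and 41.1 in the control list. Lhx5, a factor of the cortical hem, ranked at 90.3 in the NMDA list and 78.7 in the control list. In the gene bodies all 5 Pax pairs, which lay in Pax5 alone, ranked higher in the NMDA list, by a median of 15.10 points. All 4 Lhx pairs in gene bodies, at Lhx2, Lhx4, Lhx8 and Lhx9, did too, by a median of 10.24 points. In the bodies of all genes 35.1% of 12960 pairs ranked lower in the NMDA list.

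**Figure D2:**
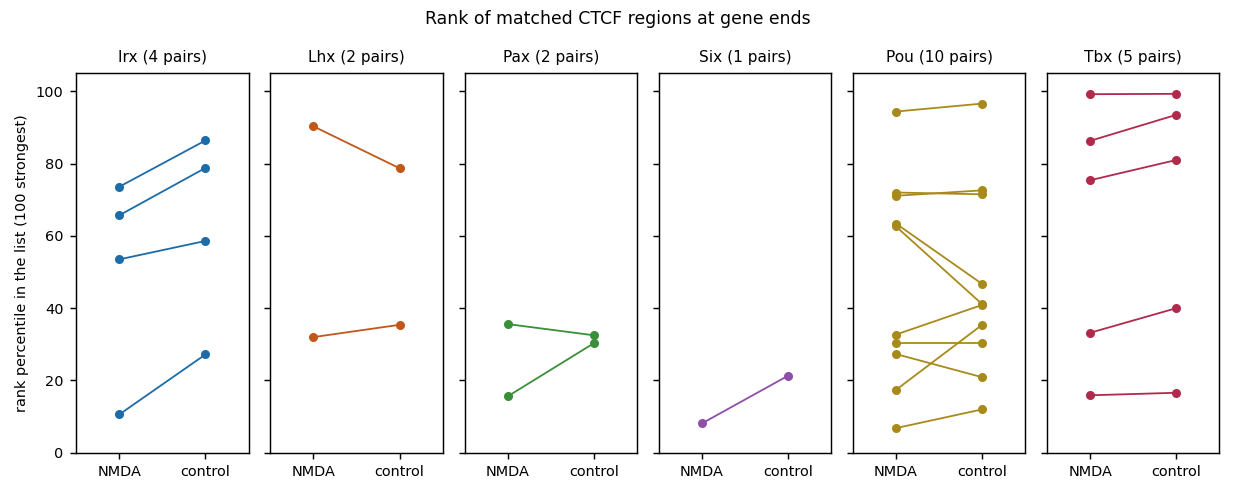
Rank percentile within the list (100 strongest) of the 24 matched regions at gene ends, NMDA left and control right, by family. Each line joins the same region in both lists. All 4 Irx lines and all 5 Tbx lines are lower on the NMDA side, and 6 of the 24 lines are higher there.

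The count of lower ranks differed between the replicate columns of the NMDA list, whose sum is the −log10 p used above. Ranked by the first column alone, 13 of 24 end pairs and 6 of 10 Irx pairs were lower in the NMDA list (all gene ends 44.3%, all pairs 41.7%). Ranked by the second alone, 19 end pairs and 9 Irx pairs were (all gene ends 60.8%, all pairs 39.4%). Ranked among paired regions only, the counts were 20 end pairs and 9 Irx pairs (all gene ends 63.6%, all pairs 48.2%). These rankings were chosen after seeing the data. The second column was the higher one in 85 of the 129 NMDA regions (65.9%), against 79.4% of the whole list. The control list had no such columns, so the same could not be asked of it.

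The Irx genes lie in a pair of clusters. In the cluster of Irx3, Irx5 and Irx6 on chromosome 8, 922 kb with the windows, there were 8 NMDA and 10 control regions. Irx5 had 4 in each list, and the summit of its end region lay 0.654 kb from the gene in the NMDA list and 0.649 kb in the control list. The strongest was the end region of Irx3 in both lists. All 8 NMDA regions were shared, and the 2 control-only regions lay in the gaps, 71.2 kb from Irx3 and 132 kb from Irx5, at ranks of 2.83 near Irx3 and 1.19 near Irx5. The median rank over all regions of the cluster was 55.4 in the NMDA list and 43.4 in the control list. The control median includes the 2 control-only regions, so the medians cover unlike sets. Every shared region but one ranked lower in the NMDA list. The exception, 27.5 kb from Irx6, ranked at 57.3 in the NMDA list and 41.6 in the control list.

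In the cluster of Irx1, Irx2 and Irx4 on chromosome 13, 1351 kb, there were 11 NMDA and 13 control regions. Those at the genes were weak, with ranks of up to 34.1 in the NMDA list and 31.1 in the control list. The strongest region lay in none of the windows, between Irx2 and Irx4, 99.1 kb from Irx4. At chr13:73159551-73161355 it had −log10 p 1063 and rank 99.8 in the NMDA list, against −log10 p 1918 and rank 99.9 in the control list. At the 5′ end of Irx2, 1 NMDA region of 882 bp overlapped 2 control regions of 1470 and 628 bp. Over both clusters the density was 0.867 NMDA and 1.08 control regions per 100 kb on chromosome 8, and 0.814 NMDA and 0.962 control regions on chromosome 13. Both were below 1.37 NMDA and 1.32 control regions per 100 kb over the genome, although the windows at the genes were dense. The genome-wide densities used spans of 2646 Mb (NMDA) and 2556 Mb (control), so they are not compared with each other.

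**Figure D3:**
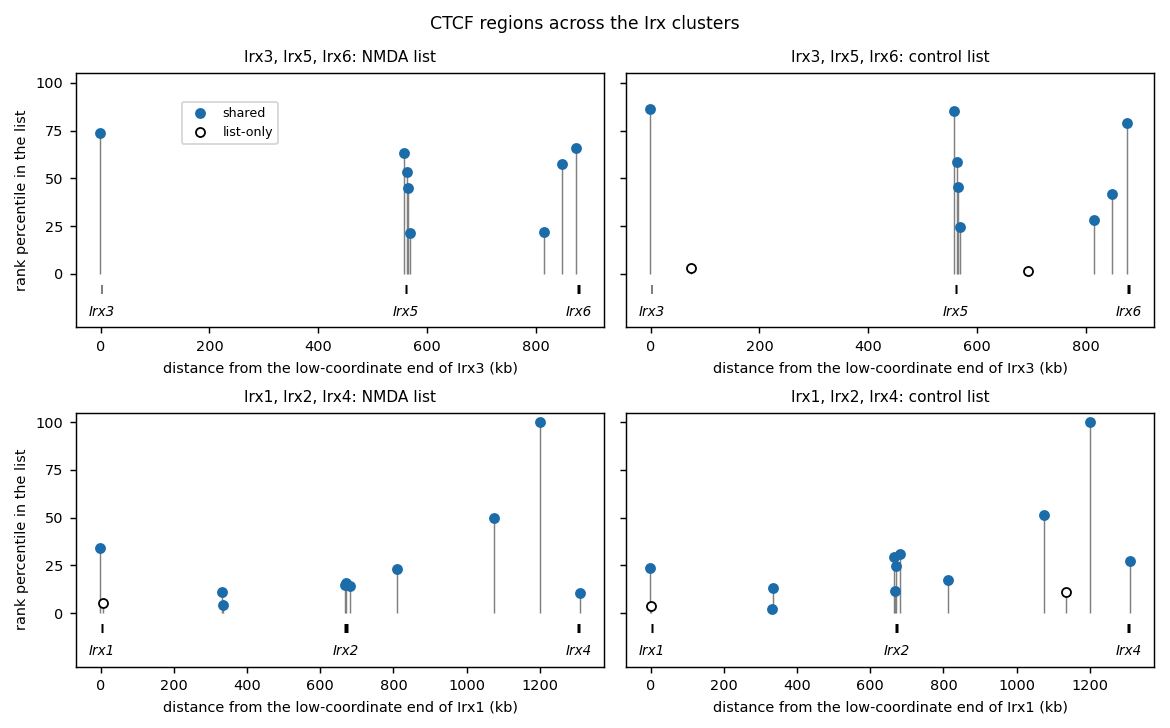
Rank percentile of each CTCF region across the Irx clusters, by distance in kb from the low-coordinate end of the first gene, NMDA list left and control list right. Black bars are genes, filled points shared regions and open points list-only regions. In the lower row the highest point, between Irx2 and Irx4, ranks at 99.8 in the NMDA list and 99.9 in the control list.

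Other Six-family and Tbx genes lie in groups of neighbours too. Six6, a factor of the retina on chromosome 12, had no region in its window, but 1 region lay 28.4 kb away in both lists. On chromosome 17, Six3, a factor of the forebrain and eye, and Six2, of kidney progenitors, had 6 NMDA and 8 control regions. All 6 NMDA regions were shared and 2 control regions were control-only, at ranks of 19.8 and 11.3. One region between them, chr17:85645241-85646756 in the NMDA list, fell in the windows of both genes, with −log10 p 189 in the NMDA list and 380 in the control list.

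Tbx2 and Tbx4 are neighbours on chromosome 11, and Tbx3 and Tbx5 on chromosome 5, 2 pairs known for limb and heart development. More regions lay in the windows of Tbx2 and Tbx3, both repressors, than in those of their neighbours. Tbx2 had 6 NMDA and 4 control regions, and Tbx4, of the hindlimb, had none, the nearest at 21.8 kb in the NMDA list and 22.1 kb in the control list. Both NMDA-only regions of the Tbx2 and Tbx4 pair were at Tbx2, at ranks of 2.94 and 15.3, and the control list had none there. Tbx3 had 3 regions in each list, all shared. Tbx5, of the forelimb and heart, had 1 NMDA and 2 control regions, all in its flank. The strongest region of that pair lay between the genes, 28.4 kb from Tbx3, with −log10 p 679 in the NMDA list and 1161 in the control list, and a rank of 98.6 in both.

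**Figure D4:**
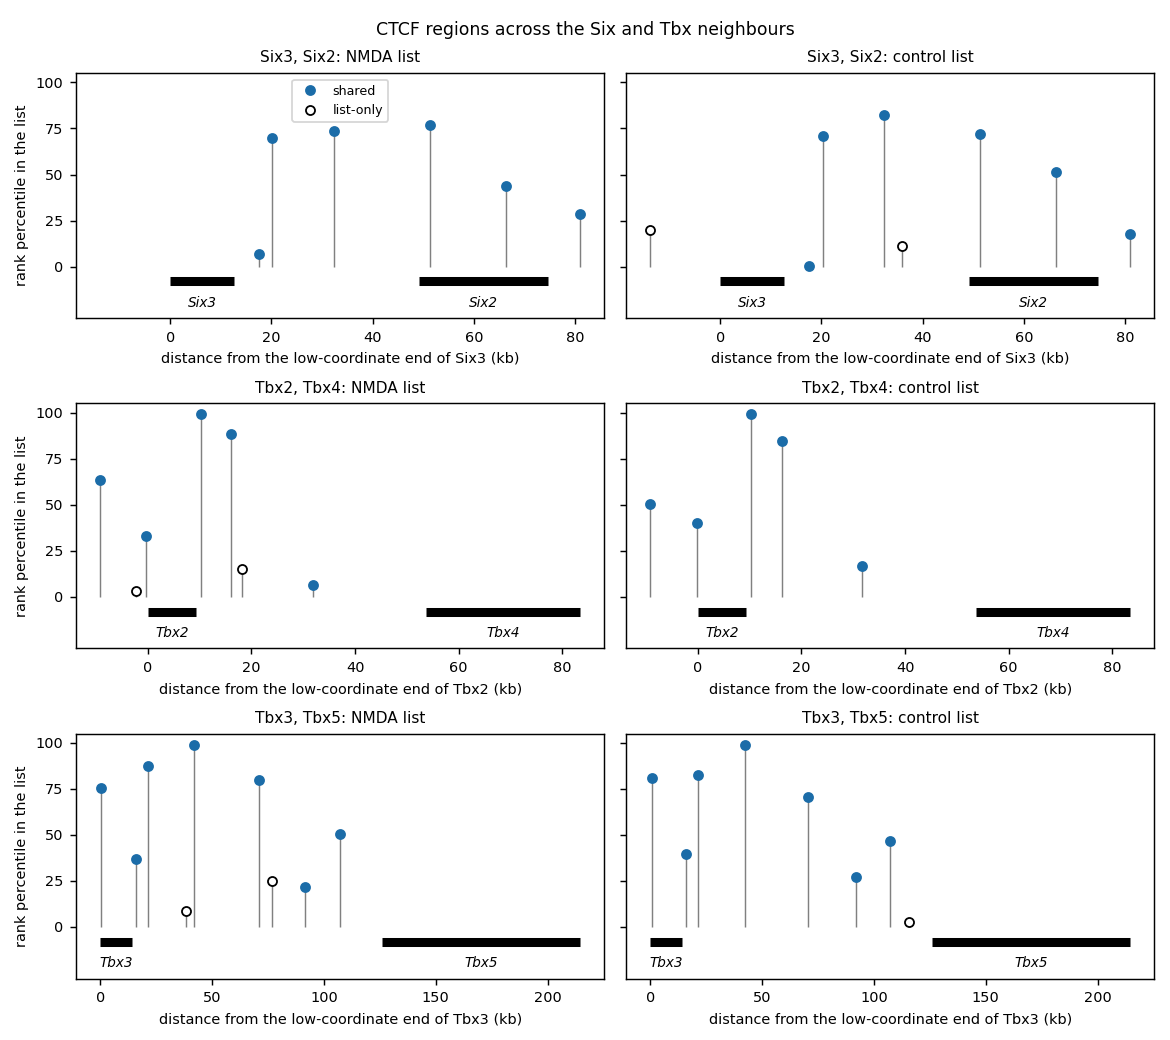
Rank percentile of each CTCF region across 3 pairs of neighbouring Six-family and Tbx genes, by distance in kb from the low-coordinate end of the first gene, NMDA list left and control list right. Black bars are genes, filled points shared regions and open points list-only regions. No point lies on Tbx4 in either list.

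Pou2f2 had the most regions of the 55 genes, 10 in the NMDA list and 9 in the control list, the difference being an NMDA-only region of the flank (−log10 p 44.7, rank 27.8). Its strongest, in the body at chr7:25104651-25106967, had −log10 p 711 and rank 98.8 in the NMDA list, against −log10 p 1061 and rank 98.2 in the control list. Pou2f3 and Pou3f3 each had 7 NMDA and 6 control regions, 1 of the NMDA regions being NMDA-only. The NMDA-only region at Pou3f3 ranked at 40.3, the highest of any NMDA-only region in the windows. Pou3f2 had 5 regions in each list, all shared, of which 2 lay at its ends. Pou2f1, expressed in nearly all tissues, had 4 in each list and its strongest at the 5′ end, where the summit lay 4 bp from the span's end in the NMDA list and 1 bp in the control list. That region had −log10 p 429 in the NMDA list (rank 94.4) and 832 in the control list (rank 96.6).

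In the other families Pax5, of B cells and the midbrain, had 6 regions in each list, all in its body, 1 of them list-only in each. The strongest, chr4:44563238-44565378, had −log10 p 411 in the NMDA list and 542 in the control list. Tbx6 had 2 NMDA and 6 control regions. Of the control regions 3 were control-only, with ranks of 22.4, 0.680 and 16.8, and 4 of the 6 lay at an end of a neighbour: Gdpd3, Ypel3, Ppp4c and Aldoa. The strongest region of a family was at the same gene in both lists, namely Irx3, Lhx2, Pax5, Six5, Pou2f2 and Tbx2. At Lhx2 it lay in the flank, with −log10 p 478 in the NMDA list and 673 in the control list. At Six5, which lies beside the kinase gene Dmpk, it was also in the flank, with −log10 p 396 in the NMDA list and 472 in the control list.

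A further 14 genes had 1 to 4 NMDA regions and 1 to 3 control regions each. Tbx19, a factor of pituitary corticotrophs, had 2 shared flank regions, at ranks of 91.4 and 79.7 in the NMDA list and 95.5 and 89.1 in the control list. Around Pax8, a factor of the thyroid, a shared region at an end of Psd4 had −log10 p 375 in the NMDA list and 385 in the control list, and a control-only region ranked at 17.5. Pou5f1, the pluripotency factor, had a body region at the bottom of both lists, at ranks of 0.392 in the NMDA list and 0.535 in the control list. Lhx8, a factor of cholinergic neurons of the basal forebrain, had 1 body region, at ranks of 29.8 in the NMDA list and 26.7 in the control list. Pou1f1, of the anterior pituitary, also had 1 body region, at 63.1 in the NMDA list and 64.4 in the control list. Regions in 1 list alone were again weak. Tbx20, a heart factor, had an NMDA-only flank region at rank 32.2, and Tbx18, of the epicardium, a control-only body region at rank 33.8. Pou3f1, of Schwann cells, had a control-only flank region at rank 14.0. Lhx3, Lhx9, Pax4, Pax9 and Tbx15 had shared regions only, 1 to 3 each, in the same number in both lists. Tbx10 had 4 NMDA regions, 1 of them NMDA-only, and 3 control regions, with an end region at rank 86.3 in the NMDA list and 93.5 in the control list.

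No region lay in the window of 7 genes in either list, 12.7% against 23.9% of all genes. They were Pou3f4, Pou4f1, Pou4f3, Pou5f2, Six6, Tbx4 and Tbx22. For Six6 and Tbx4 the nearest regions are given above. Pou4f1 and Pou4f3 are factors of sensory neurons and hair cells, and Pou3f4 is one of the inner ear. The nearest region was 234 kb away in the NMDA list and 377 kb in the control list for Pou3f4, on the X chromosome, and 142 kb in both for Pou4f1. For Tbx22, a gene of palate formation, also on the X chromosome, the distances were 79.1 kb in the NMDA list and 90.2 kb in the control list. For Pou4f3 and Pou5f2 they were 25.2 and 42.2 kb in either list.

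Widths at the ends of these genes were close to those at the ends of all genes. The median was 1247 bp for the 28 NMDA regions and 1450 bp for the 29 control regions, against 1275 bp (NMDA) and 1309 bp (control) at the ends of all genes. Over the whole lists the medians were lower, 1182 bp (NMDA) and 1123 bp (control). In 16 of the 24 matched end pairs the NMDA region was the wider one, 66.7%, and in 7 the narrower one. At the ends of all genes it was the wider one in 48.8% of pairs, and over all pairs in 61.7%. The widest lay at Tbx2, 5107 bp in the NMDA list and 4797 bp in the control list, where 33 NMDA and 20 control regions in all were wider. Lhx1, a factor of Cajal-Retzius cells and of kidney, came next in the NMDA list, with 3035 bp against 2558 bp in the control list. At Pou2f1 the region was 2140 bp wide in the NMDA list and 2796 bp in the control list, and at Tbx3 2096 bp in the NMDA list and 2689 bp in the control list. Some regions were split in 1 list only. At Tbx1, a factor of the pharyngeal arches, 2 NMDA regions of 462 and 1110 bp stood under 1 control region of 1949 bp. Near Pou6f1 a control region of 4119 bp covered 2 NMDA regions of 2721 and 1295 bp.

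**Figure D5:**
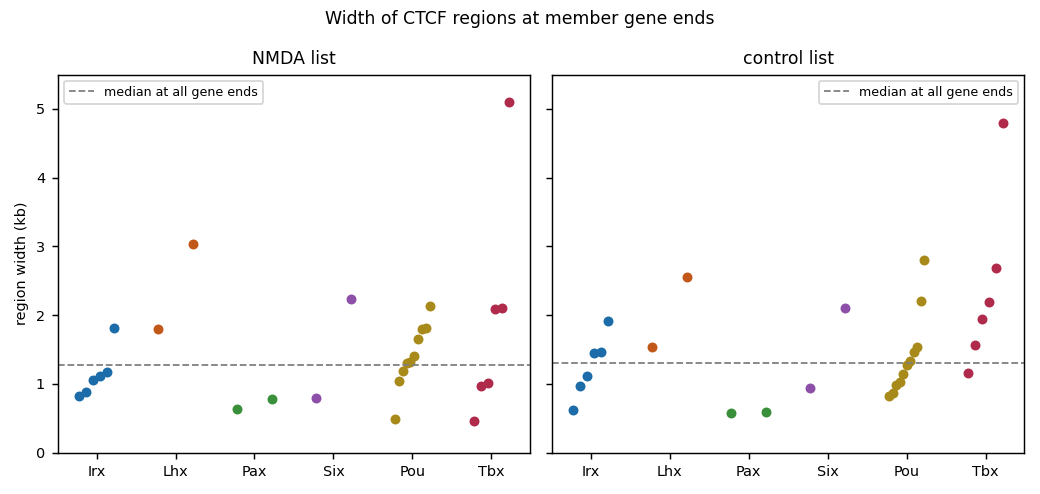
Width in kb of each CTCF region at an end of a gene, by family, NMDA list left and control list right. Each point is 1 region and the dashed line is the median at the ends of all protein-coding genes (1275 bp in the NMDA list, 1309 bp in the control list). The highest point in either panel is Tbx2.

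A list of 26 partner genes was counted beside the families. It held LIM cofactors and relatives (Ldb, Lmo, Isl and Lmx1 genes), the Eya and Dach cofactors of Six-family proteins, Tle corepressors, the B cell cofactor Pou2af1, Mkx, and T-box genes outside the Tbx names. A region lay in the window of 23 in the NMDA list (88.5%, all genes 74.6%) and 22 in the control list (84.6%, all genes 73.8%). One lay at an end of 9 in the NMDA list (34.6%, all genes 29.5%) and 7 in the control list (26.9%, all genes 29.0%). An NMDA-only region lay in 11 windows (42.3%, all genes 26.7%) and a control-only region in 7 (26.9%, all genes 16.3%). The 95% Wilson intervals of all 6 shares included the share of all genes. The partner genes were longer, with a median span of 75.0 kb against 17.2 kb over all genes. Per 100 kb of window they had 1.67 NMDA and 1.54 control regions, against 2.07 NMDA and 1.94 control regions over all genes. At gene ends Lmo4 and Tle2 had an NMDA-only region, with ranks of 7.77 and 5.44, and Lmo1 a control-only region, with a rank of 10.6 (all genes 4.28% NMDA-only and 3.53% control-only). Dach2, Pou2af1 and Tle4 had no region in either list. Eomes and Tbr1, T-box genes of the cortical glutamatergic lineage, had regions in both lists, and at the 3′ end of Tbr1 each list had one.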

How the data were processed

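Regions were read from 1 list for NMDA and 1 for control, each deposited by the authors as output of the IDR procedure over 2 replicates per condition. The submitters' processing notes name MACS2, BWA, SAMtools, Trimmomatic and FastQC and the builds mm10 and GRCm38.p6. Tool versions and thresholds: not given in the sources used here. Each region's positions, width and summit, its deposited −log10 p-value and its IDR score (at least 540 in both lists) are the authors' own values, which grow with depth and, being peak calls against an unknown threshold, say nothing of weaker binding. In the NMDA list the −log10 p equalled the sum of the 2 replicate columns in all 129 regions of the windows, within 0.001, and which replicate is first is not stated. The control list has 10 columns, against 20 in the NMDA list, and 6 columns of per-replicate positions were not used.

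Python 3.11.15 with pandas 2.3.3 placed regions on assembled chromosomes (36186 of 36193 NMDA and 33815 of 33820 control regions) by summit and by a RefSeq table of GRCm38.p6. Clusters joined members of a family at most 1 Mb apart. Ranks were percentiles within a list. Shares have 95% Wilson intervals. The counting of overlaps was tested on a shifted copy of the control list with some regions removed, and the placing of summits on made-up regions. The members and lists were chosen with earlier results of these data known, and no condition was tested against the other. Genes named are members of clusters, those with list-only end regions, none, the most, the strongest or the widest regions. The rest, among them Lhx4, Pax6, Pax7, Tbx6, Tbx21 and Pou6f1, were added to account for further genes, after their values were seen. The counts over the families include 2 genes whose own values are not reported here. The alternatives were another overlap, a stricter score, equal list lengths, other windows and end limits, placement by overlap and ranks by single replicate columns.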

Additional observations from a re-analysis of the deposited data

How the results depend on the processing

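The counts, shares, medians and widths were recomputed under 13 alternatives. Of 80 values, 73 stayed within 1.5 times the reported count or within the limits set for shares and medians, and 7 moved. The 73 include values that could not move, since shortening the NMDA list leaves the control list's window counts, end counts, ranks and widths unchanged. They also include the falls to 13 end pairs and 6 Irx pairs given below. With a window of 50 kb, 26 genes had an NMDA-only region (all genes 40.5%), and with a window of 10 kb, 10 had a control-only region (all genes 12.8%). With gene ends limited to 500 bp, 15 genes had an end region in the NMDA list and 15 in the control list, and at a score of 830 or more 16 did in the NMDA list. With a reciprocal overlap of 50%, 20.9% of NMDA regions were NMDA-only and 24.4% of control regions control-only. The cause of these shifts was not tested, beyond the wider or narrower limits themselves. The counts of pairs ranked lower in the NMDA list, 18 of 24 at gene ends and 9 of 10 in Irx windows, ranged from 13 to 20 and from 6 to 9 under rankings chosen after seeing the data. No paired analysis was possible because each condition has 1 list built over both replicates, and leaving out a replicate could not be done for the same reason. Without read counts the depth is unknown, so a region absent from a list is one that was not called there.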
